A study of Mus musculus with 9 samples.

Results

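The prostaglandin and leukotriene pathway was followed here through 10 genes, Pla2g4a, Ptgs1, Ptgs2, Ptges, Alox5, Alox5ap, Lta4h, Ltc4s, Ltb4r1 and Alox15, chosen by name from a table of 56860 genes. All 10 were found in the table, and all 10 passed the filter on low counts that left 19348 genes for testing. RNA had been sequenced from mouse spleen cells described as CD4+ T cells in 9 libraries, 3 from CIA mice treated with luteolin, 3 from CIA mice and 3 from control mice. Luteolin is a plant flavone, and the title of the series mentions Th17 cell differentiation and RA. The labels used here do not expand CIA, and give no strain, age, dose or time. Whether the replicates come from separate or pooled animals is not labelled, so p-values cover only the spread between the samples at hand, which may be technical.

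Arachidonic acid is cut from membrane phospholipids by cytosolic phospholipase A2 (Pla2g4a) and then enters competing routes. Cyclooxygenases (Ptgs1, usually constitutive, and Ptgs2, inducible by inflammatory stimuli) turn it into prostaglandin H2, from which Ptges makes prostaglandin E2. In the other route 5-lipoxygenase (Alox5), with its membrane partner FLAP (Alox5ap), makes leukotriene A4, which Lta4h converts to leukotriene B4 and Ltc4s to leukotriene C4. Ltb4r1 encodes the high-affinity receptor through which leukotriene B4 draws neutrophils, and Alox15 encodes a further lipoxygenase that contributes to lipoxins and other pro-resolving lipids. Myeloid cells, mast cells, basophils and platelets are well known for these enzymes, whereas T cells are better known for the receptors.

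The libraries held between 31234177 and 41815573 counts. In the libraries labelled control the CD4+ label was not borne out by its defining gene: Cd4 averaged 104 ± 4.57 CPM (counts relative to library size, scaled by TMM) in CIA with luteolin and 128 ± 39.6 CPM in CIA, against 2.92 ± 0.639 CPM in control-labelled libraries (SD, n = 3 each). The summed level of 10 neutrophil markers was 8220 to 8707 CPM with luteolin, 6712 to 11347 CPM in CIA and 2049 to 2418 CPM in the libraries labelled control. It exceeded the sum of 8 T cell markers in every library, which was at most 477 CPM. S100a9 alone averaged 3971 CPM with luteolin, 6744 CPM in CIA and 1648 CPM in control. Sums over different genes therefore do not compare numbers of cells. Each direction against control given below rests on the libraries labelled control. In bulk RNA of this kind, fewer cells of a type and less RNA per cell cannot be told apart.

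**Figure D1:**
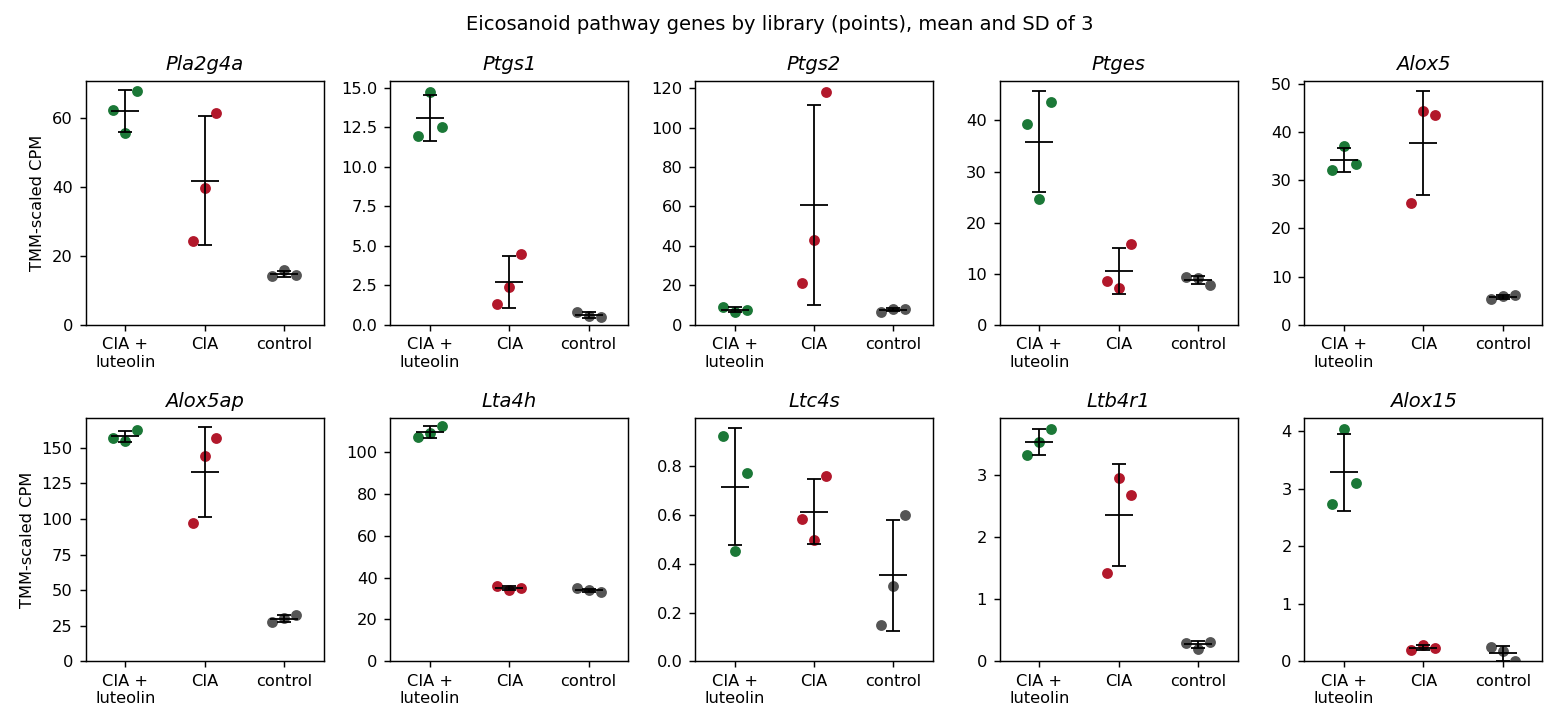
Level of the 10 pathway genes in TMM-scaled CPM on linear axes, 1 point a library, with the mean and SD of 3 libraries for CIA with luteolin, CIA and control from left to right. Ptgs2 is high in CIA alone, at 21.2 to 118 CPM, while Ptges, Lta4h and Alox15 are high in the libraries with luteolin alone.

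The 10 genes moved in separate patterns. In CIA against control 6 of the 10 rose (Ptgs1, Ptgs2, Alox5, Alox5ap, Pla2g4a and Ltb4r1) and none fell at an adjusted p under 0.05 by edgeR's quasi-likelihood test, where 51.1% of all tested genes passed, 26.6% higher and 24.5% lower. In CIA with luteolin against CIA 4 rose (Ptgs1, Ptges, Lta4h and Alox15) and Ptgs2 fell, where 47.3% of all tested genes passed, 23.1% higher and 24.2% lower. In CIA with luteolin against control 8 rose and none fell, where 45% of all tested genes passed, 24.2% higher and 20.8% lower, and Ptgs2 and Ltc4s did not pass. The median log2 fold change of the 10 was 1.79 in CIA against control, 0.58 in luteolin against CIA and 2.23 in luteolin against control, beside -0.01, -0.04 and -0.01 over all tested genes. In CIA the libraries of 6 of the 10 genes all lay above those of control and none all below, where 58.7% of tested genes had groups that did not overlap, 29.7% above and 29.1% below. With luteolin 5 genes lay wholly above CIA and 1 wholly below, beside 55.7% of tested genes without overlap, 28% above and 27.7% below. With luteolin 8 lay wholly above control and none wholly below, beside 63.3% without overlap, 32.3% above and 30.9% below. The comparisons share groups, so they are not independent of each other.

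**Figure D2:**
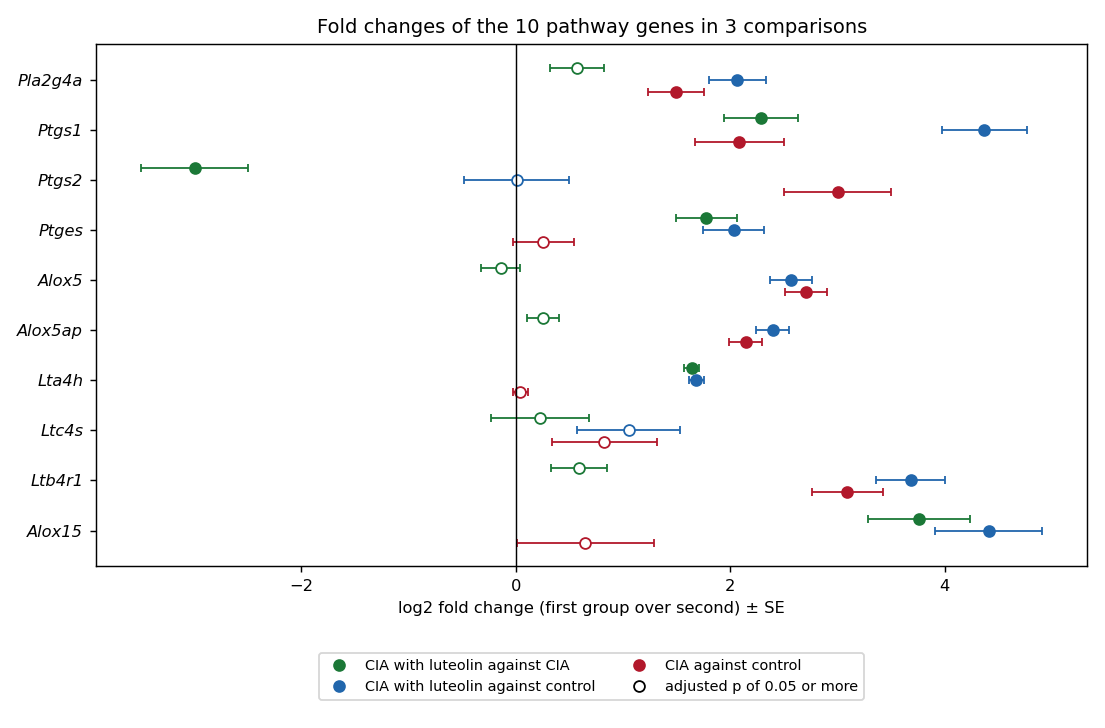
Log2 fold change with its SE from edgeR for each of the 10 genes in CIA with luteolin against CIA, CIA with luteolin against control, and CIA against control. Filled points passed an adjusted p of 0.05, and Ptgs2 is the only gene of the 10 with a filled point below 0.

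At the head of the pathway, Pla2g4a (chromosome 1, 149705369 to 149837041, minus strand, build mm39) stood at 62.2, 55.7 and 67.8 CPM in replicates 1 to 3 of CIA with luteolin, at 24.2, 39.7 and 61.3 CPM in CIA and at 14.1, 15.8 and 14.4 CPM in control. All CIA and luteolin libraries lay above all control libraries, while those of luteolin and CIA overlapped. Pla2g4a rose 2.82-fold in CIA over control (log2 fold change 1.5 ± 0.26 SE, adjusted p = 0.000934) and 4.19-fold with luteolin over control (2.07 ± 0.26, adjusted p = 0.000149). Between luteolin and CIA it did not pass (0.57 ± 0.25, adjusted p = 0.0859), although without CIA replicate 3 it did, at 0.95, as it did with the replicate number as a block (0.63) and with no filter on low counts (0.60).

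The constitutive cyclooxygenase gene Ptgs1 (chromosome 2, 36120438 to 36142284, plus strand, mm39) was at 11.9, 14.7 and 12.5 CPM with luteolin, 1.28, 2.37 and 4.47 CPM in CIA and 0.825, 0.538 and 0.506 CPM in control. The 3 groups did not overlap, and the order from high to low was luteolin, CIA, control. Ptgs1 rose 4.87-fold with luteolin over CIA (2.28 ± 0.34, adjusted p = 0.000358), 4.24-fold in CIA over control (2.08 ± 0.41, adjusted p = 0.00202) and 20.6-fold with luteolin over control (4.37 ± 0.40, adjusted p = 1.76e-05). The antisense gene Gm43621 covers 148 of its 3884 exonic bases and held 676 counts over the 9 libraries, against 1841 for Ptgs1.

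The inducible gene Ptgs2 (chromosome 1, 149975782 to 149983978, plus strand, mm39) was at 8.88, 6.47 and 7.48 CPM with luteolin, 21.2, 43.0 and 118 CPM in CIA and 6.68, 8.20 and 7.85 CPM in control. Every CIA library was above every library of the other groups, but the CIA libraries differed 5.58-fold among themselves. Ptgs2 rose 8.01-fold in CIA over control (3.0 ± 0.50, adjusted p = 0.000724). With luteolin it was 7.96-fold lower than in CIA (-2.99 ± 0.50, adjusted p = 0.000729). Without CIA replicate 3, the highest library, these changes were 2.09 and -2.08 and still passed. Luteolin and control libraries overlapped, with means of 7.61 ± 1.21 and 7.57 ± 0.795 CPM (SD, n = 3 each), a log2 difference of 0.01 ± 0.49 (adjusted p = 0.991) that was -0.12 without luteolin replicate 1 and -0.08 without control replicate 1.

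Per kilobase of exonic length, which allows levels of different genes to be set side by side, Ptgs1 made up 61.3%, 72.8% and 66.4% of the summed level of Ptgs1 and Ptgs2 in the libraries with luteolin. In CIA it made up 6.65%, 6.10% and 4.27%, and in control 12.7%, 7.18% and 7.07%. Ptgs1 was thus above Ptgs2 in each library with luteolin and below it in each other library.

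**Figure D3:**
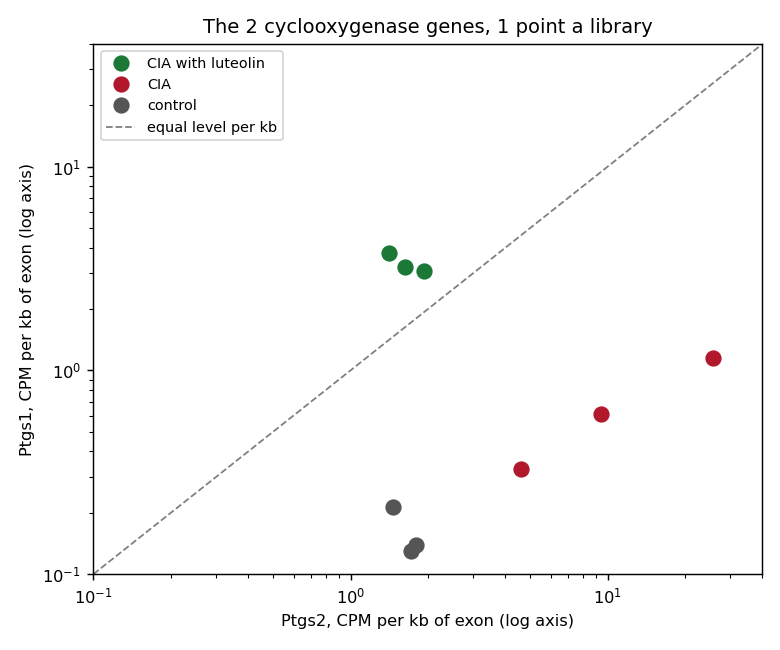
Level of Ptgs1 against that of Ptgs2 in CPM per kilobase of exon on log axes, 1 point a library. The 3 libraries with luteolin lie above the dashed line of equal level, and the 3 of CIA and 3 of control below it, with CIA displaced to the right.

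The sequences around the annotated starts of these cyclooxygenase genes and of Ptges and Ltb4r1 are shown because these genes did not all take the same pattern. Ptgs1 and Ltb4r1 shared the order luteolin, CIA, control without overlap, while Ptgs2 and Ptges each took another. Each window covers 250 bases before and 50 bases from the start in RefSeq's annotation of build GRCm38.p6, 5′ to 3′ on the gene's strand, and 8 of the 10 genes had at least 1 such window. Ptgs2 is at chr1:150099781-150100080 (plus strand), Ptgs1 at chr2:36230176-36230475 (plus), Ptges at chr2:30903248-30903547 (minus) and Ltb4r1 at chr14:55765712-55766011 (plus). Capitals mark matches on either strand to 6 motifs chosen with the sequences in view. TTGCNNAA was searched for C/EBP factors, and ACGTCA as the core of the cyclic AMP response element. CACGTG was searched as an E box, and the letters GGGCGG as a GC box. TATAAA was searched as a TATA box, and the letters AGGAAGT as a core bound by ETS factors.
Ptgs2: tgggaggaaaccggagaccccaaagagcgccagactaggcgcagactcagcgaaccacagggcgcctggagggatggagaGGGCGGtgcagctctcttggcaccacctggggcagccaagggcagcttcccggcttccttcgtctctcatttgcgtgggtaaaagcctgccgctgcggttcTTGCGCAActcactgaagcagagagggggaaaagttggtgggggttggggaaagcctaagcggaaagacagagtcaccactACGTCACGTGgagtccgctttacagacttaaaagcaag
Ptgs1: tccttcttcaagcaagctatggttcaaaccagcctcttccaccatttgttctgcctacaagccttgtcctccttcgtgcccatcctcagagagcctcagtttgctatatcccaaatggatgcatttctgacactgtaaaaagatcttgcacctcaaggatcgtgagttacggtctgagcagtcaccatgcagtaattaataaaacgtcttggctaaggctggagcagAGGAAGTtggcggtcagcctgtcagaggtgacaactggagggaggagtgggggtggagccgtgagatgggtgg
Ptges: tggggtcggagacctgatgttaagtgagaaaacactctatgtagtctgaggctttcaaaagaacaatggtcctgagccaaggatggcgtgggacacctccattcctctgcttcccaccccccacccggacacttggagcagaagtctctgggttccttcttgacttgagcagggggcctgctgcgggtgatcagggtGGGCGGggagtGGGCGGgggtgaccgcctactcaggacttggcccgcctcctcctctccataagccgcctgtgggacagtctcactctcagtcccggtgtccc
Ltb4r1: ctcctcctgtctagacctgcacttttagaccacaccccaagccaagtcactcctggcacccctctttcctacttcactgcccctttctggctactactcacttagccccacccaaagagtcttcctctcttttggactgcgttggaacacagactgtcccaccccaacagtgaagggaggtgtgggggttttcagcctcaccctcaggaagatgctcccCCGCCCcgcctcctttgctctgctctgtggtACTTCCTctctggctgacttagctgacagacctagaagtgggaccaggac

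The Ptgs2 window held the C/EBP letters 69 bases before the annotated start, the GC box letters 170 bases before it, and ACGTCA overlapping CACGTG at positions 13 and 17 after it. The Ptgs1 window held only the ETS letters, 23 bases before the start, and the Ptges window held the GC box letters at 53 and 42 bases before it. The Ltb4r1 window held the GC box letters on the opposite strand 31 bases before the start and the ETS letters, also on the opposite strand, at position 1. Of 32851 mouse promoter windows of the same length, 10.8% held the C/EBP letters, 7.51% ACGTCA, 7.15% CACGTG, 35.7% the GC box, 13.6% TATAAA and 9.35% the ETS letters. These matches describe letters in the windows and were not set against any binding data.

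Ptges, the inducible prostaglandin E synthase (chromosome 2, 30779483 to 30819875, minus strand, mm39), was at 39.3, 24.7 and 43.5 CPM with luteolin, 8.51, 7.25 and 15.7 CPM in CIA and 9.35, 9.07 and 7.82 CPM in control. All luteolin libraries were above all others, and CIA and control overlapped. Ptges rose 3.43-fold with luteolin over CIA (1.78 ± 0.28, adjusted p = 0.000530) and 4.09-fold over control (2.03 ± 0.28, adjusted p = 0.000266). In CIA against control it did not pass (0.26 ± 0.28, adjusted p = 0.473), and its sign turned without CIA replicate 3 (-0.15). Ptges thus was called higher in the comparison in which Ptgs2 was called lower.

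On the leukotriene side, the 5-lipoxygenase gene Alox5 (chromosome 6, 116387038 to 116438139, minus strand, mm39) was at 32.1, 37.1 and 33.4 CPM with luteolin, 25.3, 44.4 and 43.5 CPM in CIA and 5.33, 5.89 and 6.14 CPM in control. Luteolin and CIA libraries overlapped, and both groups lay wholly above control. Alox5 rose 6.52-fold in CIA over control (2.70 ± 0.20, adjusted p = 6.47e-06) and 5.92-fold with luteolin over control (2.57 ± 0.20, adjusted p = 6.01e-06). Between luteolin and CIA its log2 difference was -0.14 ± 0.18 (adjusted p = 0.555), and it was called lower, at -0.35, without CIA replicate 1.

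Its partner Alox5ap (chromosome 5, 149201577 to 149224963, plus strand, mm39) was at 157, 155 and 163 CPM with luteolin, 97.2, 144 and 157 CPM in CIA and 27.5, 30.4 and 32.4 CPM in control. As for Alox5, CIA and luteolin libraries overlapped and both groups lay above control. The mean of Alox5ap was higher with luteolin than in CIA, whereas that of Alox5 was higher in CIA. Alox5ap rose 4.41-fold in CIA over control (2.14 ± 0.16, adjusted p = 6.16e-06) and 5.26-fold with luteolin over control (2.39 ± 0.16, adjusted p = 2.45e-06). Against CIA the luteolin value was 0.25 ± 0.15 (adjusted p = 0.189), called without CIA replicate 3 at 0.38 and with no filter on low counts at 0.28. The antisense gene Gm19719 covers 189 of its 1420 exonic bases and held 25089 counts against 34725 for Alox5ap, so part of the count may belong to it.

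The enzymes that use leukotriene A4 differed from this pattern. Lta4h, which leads to leukotriene B4 (chromosome 10, 93289273 to 93320737, plus strand, mm39), was at 107, 109 and 112 CPM with luteolin, 35.8, 34.1 and 35.2 CPM in CIA and 34.8, 34.0 and 33.3 CPM in control. Libraries of a group lay within 1.05-fold of each other, and luteolin stood apart from both other groups. Lta4h rose 3.12-fold with luteolin over CIA (1.64 ± 0.07, adjusted p = 9.64e-08) and 3.21-fold over control (1.68 ± 0.07, adjusted p = 2.24e-07). Between CIA and control the log2 difference was 0.04 ± 0.07 (adjusted p = 0.634), with values from 0.02 to 0.06 when any library was left out.

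Ltc4s, which leads to leukotriene C4 (chromosome 11, 50127288 to 50129443, minus strand, mm39), had few counts: 39, 18 and 26 counts with luteolin, 21, 17 and 23 counts in CIA and 6, 12 and 19 counts in control. These were 0.926, 0.453 and 0.772 CPM with luteolin, 0.584, 0.497 and 0.761 CPM in CIA and 0.150, 0.307 and 0.601 CPM in control, and every pair of groups overlapped. No comparison passed (luteolin against control 1.05 ± 0.48, adjusted p = 0.0976; CIA against control 0.82 ± 0.49, adjusted p = 0.183; luteolin against CIA 0.23 ± 0.46, adjusted p = 0.707). Without control replicate 3, the highest of its group, it was called higher in CIA (1.41) and with luteolin (1.64) over control. The antisense gene Gm26542 covers 268 of the 1014 exonic bases of Ltc4s and held 611 counts over the 9 libraries against 181 for Ltc4s. Part of the Ltc4s count may therefore belong to it.

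The receptor gene Ltb4r1 (chromosome 14, 56003419 to 56005951, plus strand, mm39) was at 3.32, 3.52 and 3.74 CPM with luteolin, 1.42, 2.95 and 2.68 CPM in CIA and 0.300, 0.205 and 0.316 CPM in control. The groups did not overlap, although luteolin replicate 1 and CIA replicate 2 lay close together. Ltb4r1 rose 8.52-fold in CIA over control (3.09 ± 0.33, adjusted p = 5.63e-05) and 12.8-fold with luteolin over control (3.68 ± 0.33, adjusted p = 1.41e-05). Between luteolin and CIA it did not pass (0.59 ± 0.26, adjusted p = 0.0833), but did without CIA replicate 2, at 0.80.

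Alox15 (chromosome 11, 70234978 to 70242857, minus strand, mm39) was low outside the libraries with luteolin, with 115, 160 and 104 counts with luteolin, 7, 10 and 7 counts in CIA and 10, 7 and 0 counts in control. These were 2.73, 4.03 and 3.09 CPM with luteolin, 0.195, 0.293 and 0.232 CPM in CIA and 0.250, 0.179 and 0 CPM in control. A count of 0 in control replicate 3 allows up to 3 counts, or 0.0949 CPM (6 counts, or 0.190 CPM, where each mate was counted), for counting error alone. Alox15 rose 13.5-fold with luteolin over CIA (3.76 ± 0.48, adjusted p = 0.000120) and 21.2-fold over control (4.41 ± 0.50, adjusted p = 6.96e-05; 5.02 without control replicate 1). CIA and control overlapped and did not differ past the threshold (0.65 ± 0.64, adjusted p = 0.416), and leaving out control replicate 1 gave 1.26 and leaving out control replicate 3 gave 0.15, neither of which passed.

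The order of the genes by level per kilobase also changed between groups. Alox5ap was highest in every group, at a mean of 111 CPM per kilobase with luteolin, 93.5 in CIA and 21.2 in control. Ptgs2 came next in CIA, at 13.3 ± 11.1 CPM per kilobase (SD, n = 3), a mean whose spread reaches those of Alox5 (9.19), Pla2g4a (6.53) and Lta4h (5.74). With luteolin the next was Lta4h at 17.9, ahead of Pla2g4a at 9.68, Ptges at 9.12 and Alox5 at 8.33, the last 3 lying within their spread, while Ptgs2 was at 1.66. In control Lta4h came next at 5.58, then Pla2g4a at 2.31 and Ptges at 2.22. Alox15 was lowest in CIA and control, at 0.0976 and 0.0583, and Ltc4s with luteolin, at 0.707.

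The CIA libraries were less even than the others. In CIA, replicate 3 held the highest value for 6 of the 10 genes and the lowest for none, and replicate 1 held the lowest value for 7. Ptgs1, Ptgs2 and Pla2g4a were each lowest in replicate 1 and highest in replicate 3 there, over ranges of 3.49-fold, 5.58-fold and 2.54-fold, whereas Lta4h varied 1.05-fold. In the same libraries the summed level of 10 monocyte and macrophage markers was 1330, 2101 and 3099 CPM in replicates 1 to 3, that of 10 neutrophil markers 6712, 10061 and 11347 CPM, and that of 5 B cell markers 1043, 602 and 199 CPM. Single genes made up most of 2 of these sums. Lyz2 alone ran from 1095 to 2728 CPM over the CIA libraries, and S100a9 alone from 4783 to 8339 CPM. The part of monocytes, neutrophils and B cells in the spread of the pathway genes was not tested.

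Genes whose profile over the 9 libraries was most like that of each pathway gene were sought among 11373 others by Pearson correlation of log2(CPM + 0.5), as a description of libraries that fall into 3 groups. Ptgs2 was closest to Hcar2, a receptor for nicotinic acid and ketone bodies (r = 0.994), Prdm10 (r = 0.994) and ENSMUSG00000120024 (r = 0.993), a gene model that overlaps the chemokine gene Ccl3 on the opposite strand and held 98.8% as many counts. Lta4h was closest to Elane, neutrophil elastase of immature granulocytes (r = 0.997), Spred1 (r = 0.997) and Fcnb, ficolin B of myeloid precursors (r = 0.996). Elane itself averaged 27.8 ± 2.91 CPM with luteolin, 0.260 ± 0.124 CPM in CIA and 0.0504 ± 0.050 CPM in control (SD, n = 3 each). Alox5 was closest to Nfam1 (r = 0.998), Nfe2 and Ckap4 (both r = 0.997), and Alox5ap to Nhsl2 (r = 0.998), Abca13 and Emb (both r = 0.997). Ptgs1 was closest to Coa5 (r = 0.996), Arhgap31 and Igkv4-55 (both r = 0.995), and Ptges to Aurkaip1 (r = 0.991), Anxa5 (r = 0.988) and Eif2s1 (r = 0.987). Pla2g4a was closest to Surf4 (r = 0.9995), Fam234a (r = 0.997) and Ttn (r = 0.996), and Ltb4r1 to Kctd17 (r = 0.999), Vps26b (r = 0.996) and Tnfrsf4 (r = 0.995). Among the 10 genes themselves, the highest correlations were between Alox5ap and Ltb4r1 and between Alox5 and Alox5ap (both r = 0.988), then between Lta4h and Alox15 (r = 0.986), and those of Ptgs2 ran from -0.44 with Lta4h to 0.53 with Alox5.

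Beyond these 10 genes, 62 others of the pathway were read from the same fit in 6 lists by role, and 49 of them passed the filter. In CIA against control 23 of the 49 rose and 8 fell, with a median log2 fold change of 0.40. In luteolin against CIA 17 rose and 10 fell (median 0.15), and in luteolin against control 26 rose and 8 fell (median 0.35). The shares called, 31, 27 and 34 of 49, stand beside 51.1%, 47.3% and 45% of all tested genes. By direction, 26.6%, 23.1% and 24.2% of all tested genes were higher and 24.5%, 24.2% and 20.8% lower. The counts of each list below stand beside the same shares. Lists near them, as the phospholipases and the other prostanoid synthases in CIA against control, are not set apart from all tested genes by their counts.

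Among phospholipases and enzymes that release or store arachidonate, 4 of 13 rose and 2 fell in CIA against control. Lpcat2, an acyltransferase that also makes platelet-activating factor, rose by 1.16 ± 0.12 and Pla2g7, which degrades platelet-activating factor, by 1.0 ± 0.15, while Pla2g12a, a secreted phospholipase, fell to 3.28 ± 0.979 CPM in CIA, against 11.3 ± 3.53 CPM in control. With luteolin against CIA 4 of 13 rose and 2 fell. Acsl4, which ties arachidonate to coenzyme A, was at 94.7 ± 5.22 CPM with luteolin and 65.2 ± 6.04 CPM in CIA (0.54 ± 0.09, adjusted p = 0.000745), and the lysosomal phospholipase Pla2g15 (0.74 ± 0.16) and the acyltransferase Lpcat3 (0.55 ± 0.14) rose as well. Of the exonic bases of Lpcat3 10.2% overlap Emg1, which held 487% of its counts. With luteolin against control 6 of 13 rose and 2 fell, led by Lpcat2 (1.20 ± 0.12), Pla2g7 (1.32 ± 0.15) and Acsl4 (0.67 ± 0.09).

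Among other prostanoid synthases, Tbxas1, the thromboxane synthase of platelets and macrophages, was at 21.6 ± 1.0 CPM with luteolin, 3.92 ± 0.955 CPM in CIA and 2.27 ± 0.201 CPM in control (SD, n = 3 each). It rose 5.50-fold with luteolin over CIA (2.46 ± 0.17, adjusted p = 1.51e-06) and 9.51-fold over control (3.25 ± 0.18). Hpgds, which makes prostaglandin D2 in mast cells and macrophages, was at 29.2 ± 0.871, 19.9 ± 7.22 and 80.8 ± 1.20 CPM in luteolin, CIA and control libraries. It fell by 2.02 in CIA and by 1.47 with luteolin against control on the log2 scale (SE 0.20 each). Its rise with luteolin over CIA (0.55 ± 0.20, adjusted p = 0.0433) was lost without any of 7 libraries, namely CIA replicate 2, each luteolin replicate and each control replicate, at 0.53 to 0.58. Akr1b3, an aldose reductase that can act as a prostaglandin F synthase, was at 25.3 ± 3.71 CPM with luteolin and 80.3 ± 61.5 CPM in CIA (-1.66 ± 0.40), and at 20.3 ± 1.71 CPM in control (CIA over control 1.98 ± 0.41), values that were -0.83 and 1.15 without CIA replicate 3. Ptgis, prostacyclin synthase, had 12 counts with luteolin and 84 in control (-2.83 ± 0.79), and lost this call without luteolin replicate 2 (-2.76) or replicate 3 (-2.59). The antisense gene 1110018N20Rik covers 156 of the 2567 exonic bases of Ptgis and held 155 counts, against 106 for Ptgis. In all, 2 of 7 rose and 2 fell in CIA against control, 2 rose and 1 fell with luteolin against CIA, and 1 rose and 2 fell with luteolin against control.

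Of the 6 tested prostanoid receptors, the prostaglandin E2 receptor gene Ptger3 followed the order luteolin, CIA, control, at 6.96 ± 0.869, 1.77 ± 0.713 and 0.283 ± 0.0857 CPM (SD, n = 3 each). It rose 3.95-fold with luteolin over CIA (1.98 ± 0.26, adjusted p = 0.000164), 6.06-fold in CIA over control (2.60 ± 0.34) and 23.9-fold with luteolin over control (4.58 ± 0.32). Ptger2, a prostaglandin E2 receptor coupled to cyclic AMP, was at 20.1 ± 7.56 CPM in CIA and 6.13 ± 0.796 CPM in control (1.70 ± 0.25), and at 10.4 ± 0.506 CPM with luteolin. Its rise with luteolin over control (0.76 ± 0.25) was lost without any luteolin or any control replicate (0.66 to 0.84). Of the exonic bases of Ptger2 4.74% overlap the antisense genes Gm17173 and Gm49364, which held 81.8% and 47.5% of its counts. The prostacyclin receptor gene Ptgir fell to 21.6 ± 10.2 CPM in CIA, against 51.5 ± 15.9 CPM in control (-1.26 ± 0.30), and the thromboxane receptor gene Tbxa2r to 0.821 ± 0.0933 CPM with luteolin, against 2.00 ± 0.613 CPM in CIA (-1.29 ± 0.28). Against control the fall of Tbxa2r with luteolin (-0.83 ± 0.29) was lost without any luteolin replicate or without control replicate 1 or 2 (-0.91 to -0.65). In all, 3 rose and 1 fell in CIA against control, 2 rose and 3 fell with luteolin against CIA, and 2 rose and 2 fell with luteolin against control.

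Among other lipoxygenases and leukotriene enzymes 6 of 9 rose and none fell in CIA against control, 4 rose and 1 fell with luteolin against CIA, and 7 rose and none fell with luteolin against control. Alox8, the mouse 8-lipoxygenase, had 143 counts with luteolin, 38 in CIA and 15 in control, and rose by 1.68 ± 0.36 with luteolin over CIA and by 3.14 ± 0.41 over control. Ggt1, a gamma-glutamyl transferase that can turn leukotriene C4 into D4, was at 3.38 ± 0.471 CPM with luteolin, 11.6 ± 2.05 CPM in CIA and 3.32 ± 0.590 CPM in control, higher in CIA than in control (1.80 ± 0.18) and lower with luteolin than in CIA (-1.78 ± 0.18). Dpep2, a dipeptidase that turns leukotriene D4 into E4, rose by 1.79 ± 0.25 in CIA and by 2.60 ± 0.25 with luteolin over control, although 21.9% of its exon length overlaps other genes. Gpx4, which reduces lipid hydroperoxides, rose with luteolin over CIA (0.66 ± 0.08), and Cotl1, a partner protein of 5-lipoxygenase, rose over control in CIA (0.35 ± 0.08) and with luteolin (0.67 ± 0.08).

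Among leukotriene and pro-resolving lipid receptors, grouped with the resolving mediator annexin A1, Cmklr1, a receptor for chemerin and resolvin E1, was at 95.0 ± 18.3 CPM with luteolin, 6.86 ± 2.78 CPM in CIA and 17.8 ± 1.56 CPM in control (SD, n = 3 each). It rose 13.9-fold with luteolin over CIA (3.79 ± 0.28, adjusted p = 2.88e-06) and by 2.42 ± 0.26 over control, and fell in CIA against control (-1.38 ± 0.27). Anxa1 was at 195 ± 11.4 CPM with luteolin, 75.0 ± 16.8 CPM in CIA and 35.0 ± 1.21 CPM in control, and rose in all 3 comparisons (1.38 ± 0.14 with luteolin over CIA, 1.10 ± 0.14 in CIA over control, 2.48 ± 0.14 with luteolin over control). Cysltr1, a receptor for cysteinyl leukotrienes, rose in CIA over control (2.91 ± 0.59; 4.73 without control replicate 3), and Fpr2, which binds annexin A1 and lipoxin A4, rose with luteolin over control (1.49 ± 0.18). Gpr18 was lower with luteolin than in CIA (-1.11 ± 0.26). In this list 5 of 7 rose and 1 fell in CIA against control, 3 rose and 1 fell with luteolin against CIA, and 6 rose and 1 fell with luteolin against control.

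Of 7 tested genes of transport and inactivation, 3 rose and 2 fell in CIA against control, 2 rose and 2 fell with luteolin against CIA, and 4 rose and 1 fell with luteolin against control. Abcc1, the leukotriene C4 exporter, was at 130 ± 12.4 CPM with luteolin, 244 ± 80.9 CPM in CIA and 86.1 ± 0.677 CPM in control. It was lower with luteolin than in CIA (-0.91 ± 0.19) and higher in CIA than in control (1.5 ± 0.19). Ptgr1, a reductase that inactivates leukotriene B4 and prostaglandins, rose in CIA over control (1.88 ± 0.34; 1.28 without CIA replicate 3), and its rise with luteolin over control (1.14 ± 0.33) was lost without luteolin replicate 1 or 3 or any control replicate (1.04 to 1.16). Cyp4f18, which hydroxylates leukotriene B4 in mouse neutrophils, was at 16.2 ± 3.01 CPM with luteolin, 31.4 ± 9.42 CPM in CIA and 42.9 ± 4.36 CPM in control, lower with luteolin than in CIA (-0.95 ± 0.21) and than in control (-1.40 ± 0.21). Of the exonic bases of Cyp4f18 9.76% overlap Zfp961, which held 64.6% of its counts. Cyp4f13, a relative of Cyp4f18, fell in CIA against control (-1.44 ± 0.25). Ptgr2 rose with luteolin over CIA (0.56 ± 0.08, with 32.0% of its exonic bases shared with Gm47484), and the prostanoid exporter gene Abcc4 rose with luteolin over control (0.43 ± 0.08). Hpgd, the main enzyme of prostaglandin breakdown, had 4 counts with luteolin and 0 in CIA and control, and was left out by the filter.

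**Figure D4:**
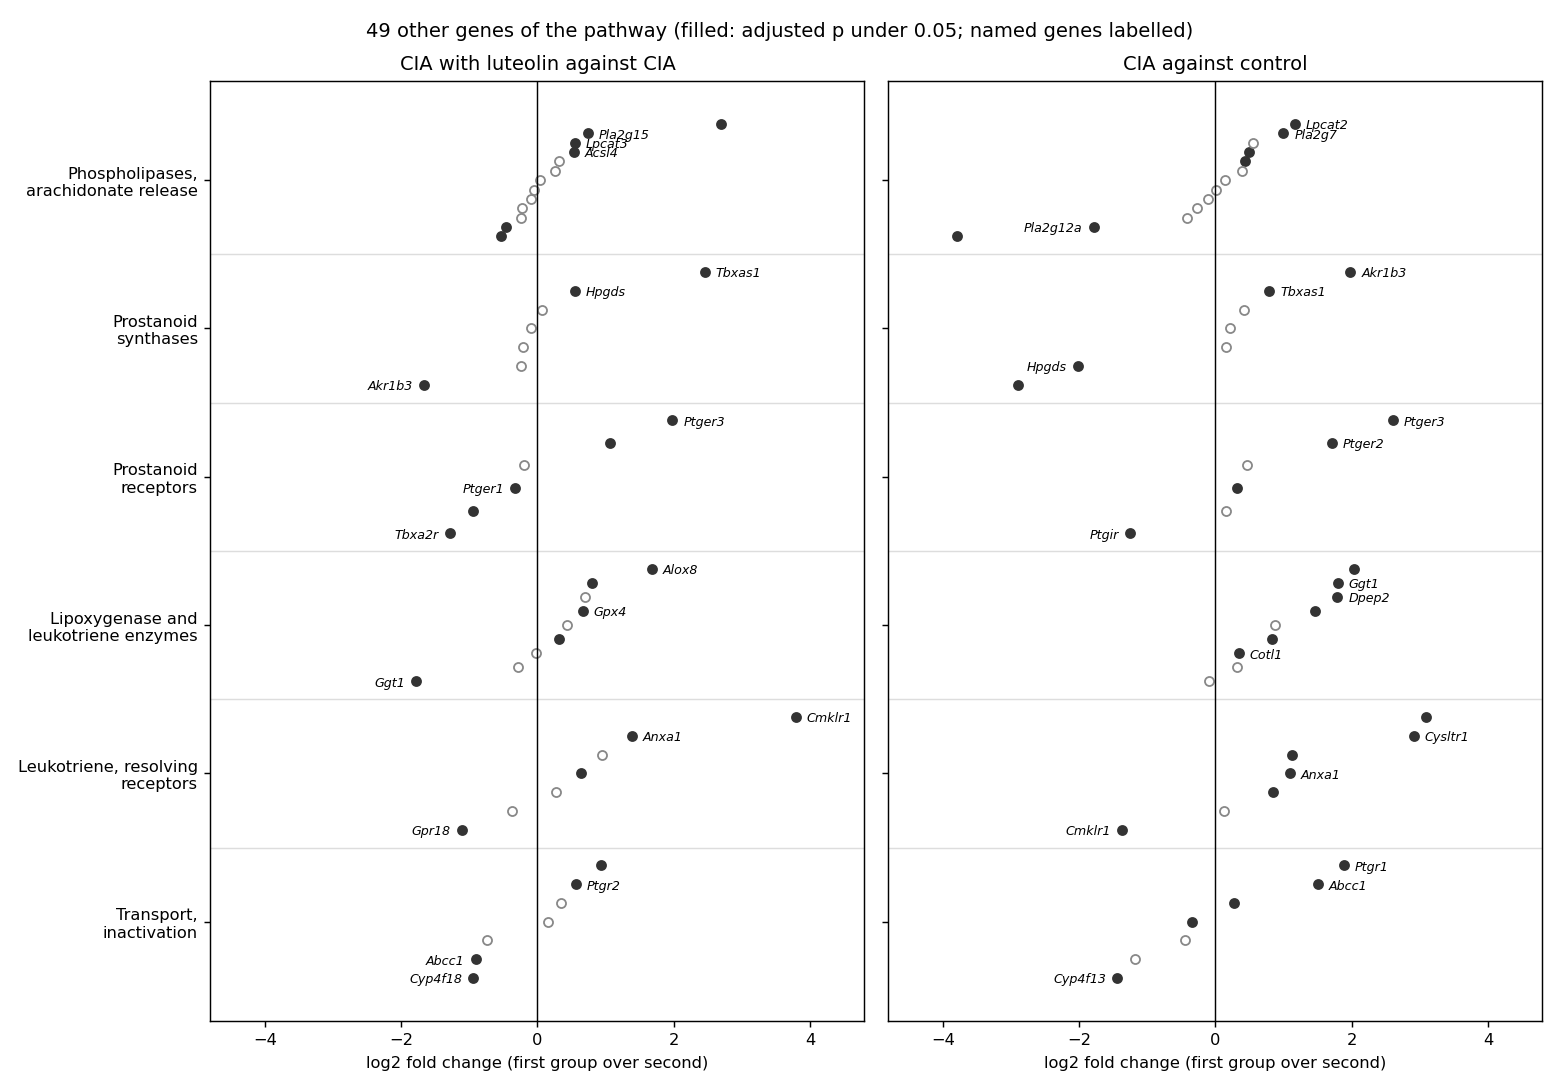
Log2 fold change of the 49 other tested genes of the pathway in 6 lists by role, for CIA with luteolin against CIA and for CIA against control. Filled points passed an adjusted p of 0.05 and labels name up to 3 genes with the smallest p in each list, with Cmklr1 farthest to the right with luteolin at 3.79.

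Markers of cells known for these enzymes moved with the groups, and their part in the results above was not tested. Of all tested genes 26.6% were called higher and 24.5% lower in CIA against control. With luteolin against CIA 23.1% were called higher and 24.2% lower. The marker counts below stand beside these shares, and counts near them do not set a list apart from all tested genes. All 10 neutrophil markers rose in CIA against control, while with luteolin against CIA 3 rose and 7 fell. Among those that fell, picked here after their values were seen, were Cxcr2, at 104 ± 3.68 CPM with luteolin and 157 ± 34.9 CPM in CIA, and Retnlg, at 9.14 ± 1.49 and 50.9 ± 11.5 CPM, and among those that rose were the granule genes Ngp, at 2268 ± 28.7 and 262 ± 54.5 CPM, and Ltf, at 962 ± 50.9 and 291 ± 94.4 CPM. Of 10 monocyte and macrophage markers 8 rose and none fell with luteolin against CIA, and 3 rose and 4 fell in CIA against control, with a summed level of 2727 to 3117 CPM with luteolin, 1330 to 3099 CPM in CIA and 596 to 729 CPM in control. Of 9 mast cell and basophil markers 8 rose with luteolin against CIA and all 9 in CIA against control, with sums of 271 to 295 CPM, 84.0 to 157 CPM and 22.0 to 25.5 CPM in luteolin, CIA and control. Of 6 eosinophil markers 5 were tested, of which 3 rose with luteolin against CIA, with sums of 77.5 to 97.8, 9.62 to 14.6 and 1.68 to 3.23 CPM in the same order; Ear1 was at 0 in every control library and in some of CIA, and Siglecf in some of control. Of 6 platelet markers 2 rose and 1 fell with luteolin against CIA, and all 6 rose in CIA against control, with sums of 86.4 to 91.3, 20.7 to 45.0 and 5.0 to 6.90 CPM, and Ppbp, Gp9 and Treml1 were at 0 in some control libraries. Of 5 dendritic cell markers 3 rose and none fell with luteolin against CIA, with sums of 37.8 to 43.7, 9.33 to 14.1 and 28.7 to 30.6 CPM. B cell markers summed to 296 to 370 CPM, 199 to 1043 CPM and 1411 to 1471 CPM, and 1 of 5 fell with luteolin against CIA and 4 of 5 in CIA against control. T cell markers summed to 303 to 322, 283 to 477 and 146 to 162 CPM, and 2 of 8 fell with luteolin against CIA, while 7 of 8 rose in CIA against control.

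**Figure D5:**
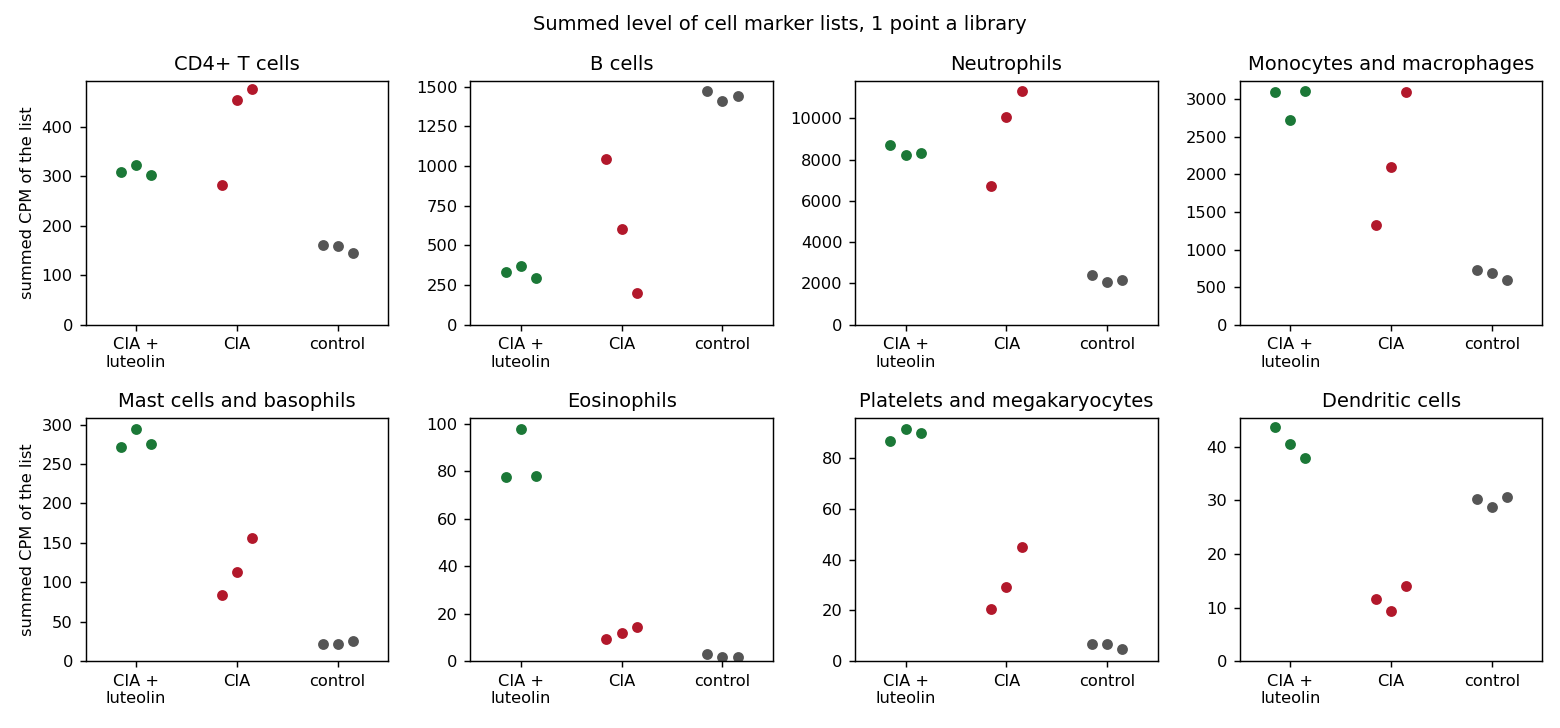
Summed CPM of 8 lists of cell markers on linear axes, 1 point a library, for CIA with luteolin, CIA and control from left to right. Sums for eosinophils, platelets, and mast cells and basophils are highest in the libraries with luteolin, and that for B cells is highest in control. With luteolin the eosinophil sum is mostly Prg2 (mean 73.1 CPM) and the platelet sum mostly Itga2b (60.4 CPM) and Pf4 (24.6 CPM). Of the 6 platelet markers only 2 were called higher than in CIA, and 1 was called lower.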

How the data were processed

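The authors deposited 1 table of unnormalized read counts. Per the labels' protocols it came from featureCounts (Subread 1.5.1), and per the submitters' processing notes reads had been trimmed with Trimmomatic 0.36. Mapping used a program written as STRA 2.5.3a, per the labels' protocols, which name the hamster genome CHOK1GS as reference, whereas the processing notes give the build mm39. The table lists mouse genes, and its coordinates are printed here as mm39. The annotation release and the strand setting are not given in the sources used here. Even numbers made up 73.4% of 84618 values between 1 and 10 and 52.8% of 43217 values between 201 and 1000. Both mates of a pair may therefore have been counted, and a limit of 3 counts would then be 6. Counts from exonic bases shared by antisense genes were not separable.

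Counts were tested with edgeR 4.0.16 in R 4.3.3: filterByExpr with the groups, TMM scaling (factors 0.950 to 1.02), a quasi-likelihood fit with a term per group over all 9 libraries, 2-sided tests of 3 comparisons, and Benjamini-Hochberg adjustment over 19348 genes at 0.05. SEs were taken from the size of each log2 fold change and its F statistic. Levels between genes were compared as CPM per kilobase of the exonic length in the table. DESeq2 1.42.0, other filters, fits of 6 libraries, a replicate block and each library left out served as alternatives. Counts of calls among the other pathway genes were added to these alternatives after the data had been seen. Up to 3 genes with the smallest p were named per list and comparison. The result of 1 gene so chosen is not reported here. The procedure was tested on simulated data. The members, lists and rules were chosen with earlier results of these data known, and limits from counts of 0 cover counting error only.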

Additional observations from a re-analysis of the deposited data

How the results depend on the processing

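Each comparison was refitted under 15 alternatives, 9 of which left out 1 library. The number of the 10 pathway genes past the threshold stayed at 6 or 7 in CIA against control, at 5 to 7 with luteolin against CIA and at 8 or 9 with luteolin against control, and the genes called in the chosen fit were called in every alternative. Over all genes, DESeq2 called 10261, 9521 and 9049 genes in these comparisons, and fits of only the 6 libraries compared called 8262, 8043 and 10792. With the replicate number as a block 9794, 9148 and 8764 genes and 6, 6 and 8 of the pathway genes passed, the added gene being Pla2g4a with luteolin against CIA (0.63). Of the other pathway genes, 28 to 34, 24 to 33 and 25 to 38 passed over the alternatives. The chosen fit did not pair the samples by replicate number. Same-numbered libraries correlated in their deviations from the group means at -0.03 to 0.22, over 0.1 in 3 of 9 pairs. In 8 of the 9 pairs, however, the same-numbered library was the best match in the other group. Whether the replicate numbers mark pairs is not settled by these values. Values whose sign turned were Ptges in CIA against control (-0.15 to 0.46 when 1 library was left out) and Ptgs2 with luteolin against control (-0.12 to 0.17), and neither had passed. Ltc4s, and Alox15 outside luteolin, rest on few counts, and small differences there were not detectable at this depth.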
